A study of Arabidopsis thaliana with 36 samples.

Results

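Flavonoid pigment genes of Arabidopsis thaliana are switched by a small set of transcription factors, and 10 of these were followed here: MYB11, MYB12 and MYB111, MYB75 and MYB90, the repressor MYBL2, the bHLH proteins TT8, GL3 and EGL3, and the WD40 protein TTG1. They were chosen by locus, as 10 named genes of 27562 protein-coding loci. The rule uses no measured value, although the set was proposed with earlier results of these data known. All 10 were called in at least 1 of the 4 expression tables that the authors deposited, beside 39.1% of protein-coding loci, and 0 were called in all 4, beside 1.9%. Of the members 1 (EGL3) was called in the 12 splicing tables, beside 43.7% of the protein-coding loci with an intron. RNA came from whole seedlings, 3 libraries in each of 12 groups. The 4 groups with expression tables were the wild type Col-0 (WT) and the single mutant swap1-1, each in darkness or red light. The splicing tables add the double mutants swap1-1sfps-2, swap1-1rrc1-3 and sfps-2rrc1-3 and the triple mutant swap1-1sfps-2rrc1-3. SWAP1, SFPS and RRC1 are splicing factors of the light pathway. All seeds, on medium lacking sucrose, were kept cold for 4 days and given 3 h of white light for germination, so the dark groups too had been lit as seeds. The seedlings then grew in the dark for 4 days and received 3 h of continuous red light (7 µmol of photons on each square metre in 1 second) or 3 h more of darkness. Each genotype is represented by 1 allele per gene.

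The flavonoid pathway makes colourless flavonols and, through later steps, red and purple anthocyanins. MYB11, MYB12 and MYB111 are related activators that act without a bHLH partner on the early genes of flavonol synthesis. MYB75 and MYB90, also called PAP1 and PAP2, act in a complex with TT8, GL3 or EGL3 and with TTG1 on the late genes of anthocyanin synthesis, while MYBL2 enters the same complex and represses. GL3, EGL3 and TTG1 also work with other MYB proteins in the patterning of leaf hairs and root hairs. In seedlings that leave darkness, the light factor HY5 is known to act on several genes of this set.

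The deposited tables hold comparisons of whole groups and no value of a single library, so the spread between libraries enters only through the authors' standard errors (SE), and the depth of each library is unknown. A transcript is called in a table when its log2 fold change lies at or beyond 0.585 in size, the limit named in the headers, and its adjusted p-value does not exceed 0.05. A transcript that was not called has no value in that table, so a change below these limits, too few reads and no change cannot be told apart. Group levels below are normalised counts solved from the base mean and the fold change of each comparison. The tables were put on 1 scale first, since their scales lay up to 0.205 log2 units apart, after which estimates of the same group from different tables differed by a median of at most 0.00122 log2 units. The RNA is of whole seedlings, in which fewer cells of a type and less RNA per cell cannot be told apart. Of SWAP1 itself, 2 exon bins were lower in the mutant in each of the 6 splicing comparisons whose groups differ in swap1, the lowest at -0.87 to -1.58 log2 units in the authors' deposited tables, beside other bins that were higher. The 1 SWAP1 transcript called between genotypes (AT4G31200.3) had a log2 fold change of 0.92 (SE 0.28) for swap1 over WT under red light, higher and not lower, in the authors' deposited table.

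In the TAIR10 annotation the flavonol activators lie at chr3:23154630-23156585 (MYB11, AT3G62610, plus strand), chr2:19476326-19479597 (MYB12, AT2G47460, plus strand) and chr5:19998823-20001572 (MYB111, AT5G49330, minus strand). The anthocyanin MYB genes lie at chr1:21233555-21235292 (MYB75, AT1G56650, minus strand) and chr1:24763941-24765541 (MYB90, AT1G66390, plus strand), and MYBL2 at chr1:26795052-26796532 (MYBL2, AT1G71030, minus strand). The bHLH genes lie at chr4:6181881-6186523 (TT8, AT4G09820, plus strand), chr5:16529090-16533287 (GL3, AT5G41315, plus strand) and chr1:23599413-23603164 (EGL3, AT1G63650, plus strand), and TTG1 at chr5:8370317-8372847 (TTG1, AT5G24520, minus strand). All are protein-coding loci, and the positions are those of the whole annotated locus.

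The windows of 250 bases before the annotated gene start are given here for 4 members whose levels moved by light or by genotype, since HY5, a bZIP factor, is known to bind elements with an ACGT core. They were cut from RefSeq assembly TAIR10.1, 5′ to 3′ on the gene's strand, and capitals mark each ACGT and the whole of CACGTG where it occurs. MYB11 is on chromosome 3 (plus strand), MYB12 on chromosome 2 (plus), MYB75 on chromosome 1 (minus) and TT8 on chromosome 4 (plus), at chr3:23154380-23154629, chr2:19476076-19476325, chr1:21235293-21235542 and chr4:6181631-6181880.
MYB11: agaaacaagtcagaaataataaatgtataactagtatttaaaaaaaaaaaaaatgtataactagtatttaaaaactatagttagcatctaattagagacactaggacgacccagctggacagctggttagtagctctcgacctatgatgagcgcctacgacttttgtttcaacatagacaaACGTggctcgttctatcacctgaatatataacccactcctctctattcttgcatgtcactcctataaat
MYB12: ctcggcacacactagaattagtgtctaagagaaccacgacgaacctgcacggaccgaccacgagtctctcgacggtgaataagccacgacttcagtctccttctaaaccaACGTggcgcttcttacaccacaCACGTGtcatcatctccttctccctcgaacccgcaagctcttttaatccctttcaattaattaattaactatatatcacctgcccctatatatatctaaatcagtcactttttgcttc
MYB75: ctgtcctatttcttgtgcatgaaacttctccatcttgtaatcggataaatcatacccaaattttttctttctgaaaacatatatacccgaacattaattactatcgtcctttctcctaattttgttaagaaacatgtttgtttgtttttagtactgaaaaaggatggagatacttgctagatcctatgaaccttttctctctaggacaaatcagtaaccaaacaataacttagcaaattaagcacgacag
TT8: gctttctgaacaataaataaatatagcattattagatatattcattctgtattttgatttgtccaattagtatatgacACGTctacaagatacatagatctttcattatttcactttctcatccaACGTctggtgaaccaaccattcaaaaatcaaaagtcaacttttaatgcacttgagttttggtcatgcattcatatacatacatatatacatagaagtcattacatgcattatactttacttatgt
The MYB12 window holds ACGT at 140 and 117 bases before the start, the second inside CACGTG. The MYB11 window holds ACGT once, at 69 bases, the TT8 window at 172 and 125 bases, and the MYB75 window holds none. Both motifs read the same on either strand, and each CACGTG also counts as an ACGT. Of the 10 members 7 have ACGT in this window, against 44.1% of 27443 protein-coding genes, and 2 (MYB12 and MYB90) have CACGTG, against 6.49%. A match in this window is a description of its letters.

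Red light raised regulators of both branches of the pathway in WT seedlings. Of the 10 members 5 were called, all higher in red light and 0 lower. Of all protein-coding loci 20.4% were called in this table, 12.5% higher and 7.95% lower. They were the flavonol activator MYB12, the anthocyanin activator MYB75 and all 3 bHLH partners TT8, GL3 and EGL3. TT8 had the largest fold change and MYB75 the highest level of these. The median of the members called was 2.17 log2 units, taking the transcript with the largest change of each gene. The signed median over all transcripts called by light in WT was 0.73. It pools 3760 higher and 2467 lower transcripts, so it is no typical size of response to set the members against.

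The MYB12 transcript (AT2G47460.1) stood at a normalised count of 8.31 in dark WT seedlings and 80.5 after red light. In the authors' deposited table this is a log2 fold change of 3.27 (SE 0.50, adjusted p = 5.88e-10). In swap1 the level went from 4.97 to 28.9, which is 2.54 (SE 0.63, adjusted p = 1.94e-04) in the authors' deposited table. Light raised MYB12 in both genotypes from low dark levels, and the level reached was lower in swap1.

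MYB11, which shares 76.7% of aligned coding bases with MYB12, showed another pattern. Its transcript (AT3G62610.1) stood at 55.4 in dark WT seedlings and 48.1 in WT after red light, and was not called between these groups. In swap1 it stood at 6.115 in darkness and 87.8 after red light, a log2 fold change of 3.85 (SE 0.47, adjusted p = 2.35e-15) in the authors' deposited table. The swap1 group in darkness was thus the low one of the 4 and the swap1 group in red light the high one.

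The value of MYB11 that the table of WT light response leaves out follows from the other 3 tables, since the 4 comparisons close a loop. It is -0.20 log2 units (SE 0.40, 95% interval -0.99 to 0.59). Over 535 transcripts called in all 4 tables, the value found in this way missed the deposited one by a median of 0.00302 log2 units, and 95% missed it by at most 0.00800.

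MYB111, the third flavonol activator, was called by light only in the table of swap1, at a log2 fold change of 0.91 (SE 0.16, adjusted p = 2.96e-08) in the authors' deposited table. Its level in swap1 went from 227 to 427, and its level in WT in the dark was 456. The levels of WT in the dark and of swap1 in red light lay close together, with swap1 in the dark below both. Whether the light response of MYB111 differs between genotypes was not tested, since it has a value in 1 of the 2 light tables.

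**Figure D1:**
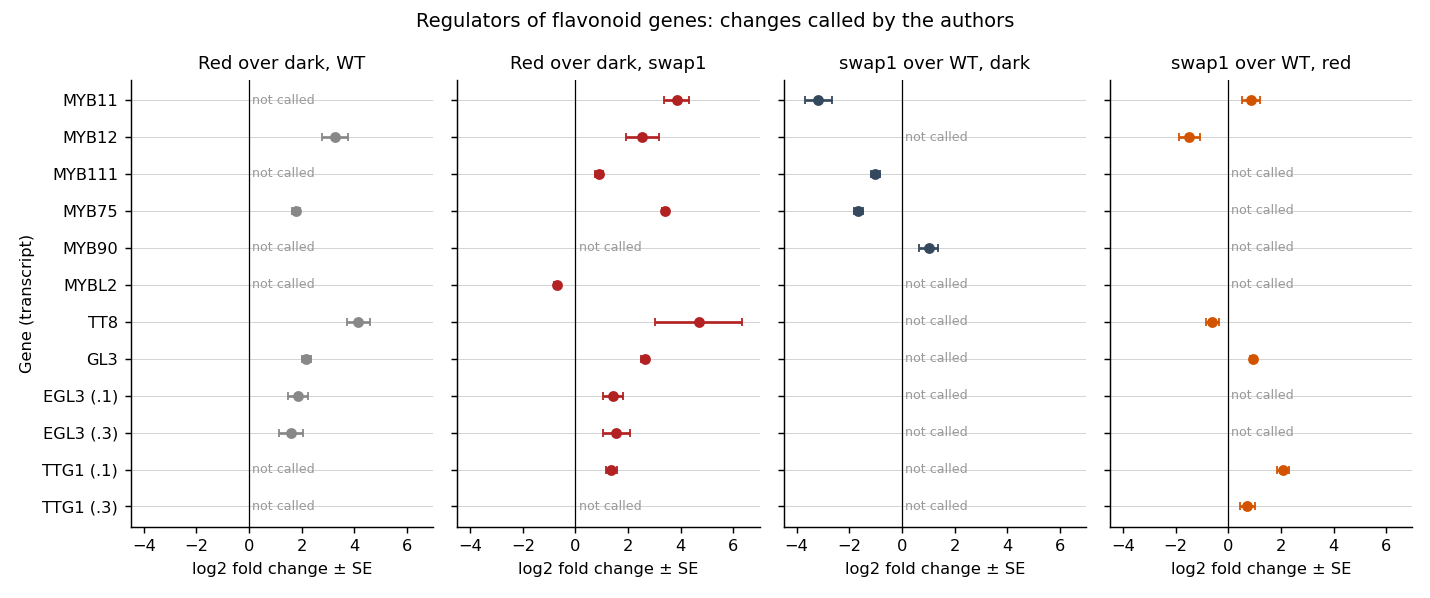
Log2 fold changes with their SE (x axis) of the member transcripts (y axis) in the 4 expression comparisons, as deposited and with genotype tables turned to swap1 over WT. In swap1 8 members were higher in red light and 1 (MYBL2) lower, while in WT 5 were higher, and entries with no value were not called.

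Among the anthocyanin regulators, MYB75 rose with light in both genotypes. Its transcript (AT1G56650.1) went from 885 in the dark to 3045 in red light in WT, a log2 fold change of 1.78 (SE 0.15, adjusted p = 4.51e-32) in the authors' deposited table. In swap1 it went from 282 to 2976, a log2 fold change of 3.40 (SE 0.11, adjusted p = 2.77e-199) in the authors' deposited table. The levels in red light lay close together and those in the dark apart. MYB90, a close relative with 84.3% identity to MYB75 over the coding sequence, was called by light in neither genotype.

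The transcripts of MYB75 and MYB90 share at most 42 identical bases in a row, and those of MYB90 and MYB114 at most 77, both less than a read of 150 bases. A full read of 150 bases thus cannot lie inside such a stretch and also covers bases outside it. How the authors treated reads that overlap these stretches is not given in the sources used here. MYB113 and MYB114, the other anthocyanin MYB genes of this family, were called in 0 of the 4 expression tables.

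MYBL2, the repressor, was the only member that light lowered. Its transcript (AT1G71030.1) fell in swap1 from a normalised count of 13153 to 8014, a log2 fold change of -0.71 (SE 0.08, adjusted p = 5.24e-17) in the authors' deposited table. In WT the MYBL2 change was not called. AT1G71030.1 is 1 of 2 annotated MYBL2 transcripts, with 68 exonic bases found in it alone, so its separate value is uncertain. Per kb of transcript MYBL2 was the most abundant member of those with a level in swap1, with 10763 normalised counts per kb in darkness and 6558 after red light. MYB75 followed in red light, at 2684 per kb.

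The bHLH partners all rose in both genotypes. TT8 (AT4G09820.1) went from 6.35 to 114 normalised counts in WT, a log2 fold change of 4.16 (SE 0.43, adjusted p = 1.07e-20) in the authors' deposited table. In swap1 TT8 went from 2.89 to 74.7, a log2 fold change of 4.69 (SE 1.65, adjusted p = 0.0115) in the authors' deposited table, whose SE is the widest among the members. TT8 was low in both dark groups and rose in both genotypes.

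GL3 (AT5G41315.1) went from 129 to 581 in WT, a log2 fold change of 2.17 (SE 0.17, adjusted p = 6.26e-37) in the authors' deposited table. In swap1 GL3 went from 181 to 1117, a log2 fold change of 2.62 (SE 0.15, adjusted p = 3.78e-70) in the authors' deposited table. Both swap1 levels lay above the WT level in the same light, of which the one in red light was called.

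EGL3 was called through 2 of its 3 annotated transcripts. AT1G63650.1 went from 19.5 to 71.1 in WT and from 23.6 to 63.7 in swap1, log2 fold changes of 1.87 (SE 0.38) and 1.43 (SE 0.37) in the authors' deposited tables. AT1G63650.3 stood at 12.97 in dark and 39.4 in red light in WT, and at 11.7 and 34.2 in swap1, log2 fold changes of 1.603 (SE 0.47) and 1.54 (SE 0.52) in the authors' deposited tables. These transcripts encode the same 1791 coding bases and differ before the start codon, with 153 exonic bases found in AT1G63650.1 alone and 66 in AT1G63650.3 alone, so their separate values are uncertain.

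TTG1, the WD40 scaffold of the complex, was called by light in swap1 through AT5G24520.1, whose level went from 84.1 to 215, a log2 fold change of 1.36 (SE 0.20, adjusted p = 1.63e-10) in the authors' deposited table. In all, 9 of the 10 members were called by light in swap1, where 24.6% of loci were. Of them 8 were higher, beside 14.1% of loci, and 1 was lower, beside 10.5%. The median of the called members in swap1, taken in the same way, was 2.54 log2 units. The signed median over all transcripts called there was 0.70, which pools 4364 higher and 3232 lower ones and is again no typical size.

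**Figure D2:**
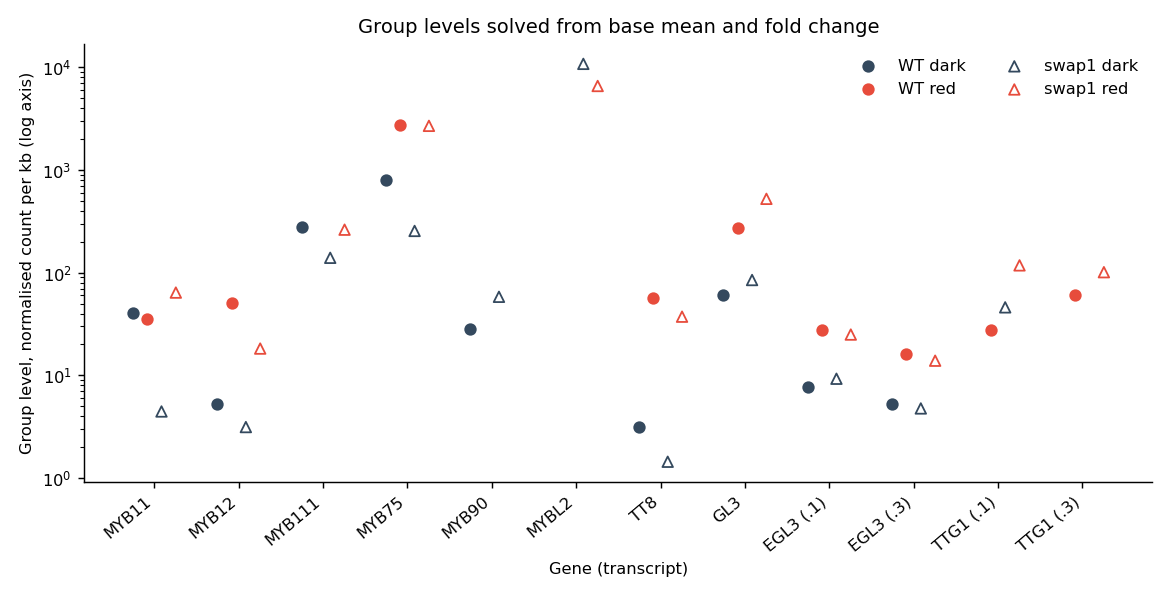
Group levels of the member transcripts in normalised counts per kb of transcript (log axis), with 1 point per group and no error bar, since the files hold no library values. MYBL2 and MYB75 are the highest within each group in which they have a level. The lowest levels are those of TT8 in both dark groups and of MYB12 in swap1 in darkness. The dark level of swap1 lies below that of WT for MYB11, MYB111 and MYB75 (called). It also lies below for MYB12, TT8 and the EGL3 transcript AT1G63650.3 (not called).

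The size of the light response was compared between genotypes for the members called by light in both, which were 5 genes with 6 transcripts. The difference of the fold changes was set against the root of the summed squared SE, with a p-value from the normal distribution, adjusted after Benjamini and Hochberg over all 4679 transcripts called in both tables. The SE are those of the authors' DESeq2 fits. Of these transcripts 26.4% differed at an adjusted p below 0.05. MYB75 differed, rising by 1.62 log2 units more in swap1 (SE 0.19, 95% interval 1.25 to 1.98, adjusted p = 2.81e-16). MYB11 is not among the members tested here, since it was not called by light in WT.

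For the other 4 genes no difference passed the threshold, and their intervals differ in width. GL3 rose by 0.45 more in swap1 (SE 0.22, interval 0.01 to 0.89, adjusted p = 0.127). The difference of MYB12 was -0.73 (SE 0.81, interval -2.32 to 0.85, adjusted p = 0.590), and that of TT8 was 0.53 (SE 1.71, interval -2.82 to 3.89, adjusted p = 0.882). The 2 EGL3 transcripts gave -0.44 (interval -1.47 to 0.59) and -0.06 (interval -1.42 to 1.30). The TT8 interval is the widest of the 6, so these data say little of how TT8 differs between genotypes.

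**Figure D3:**
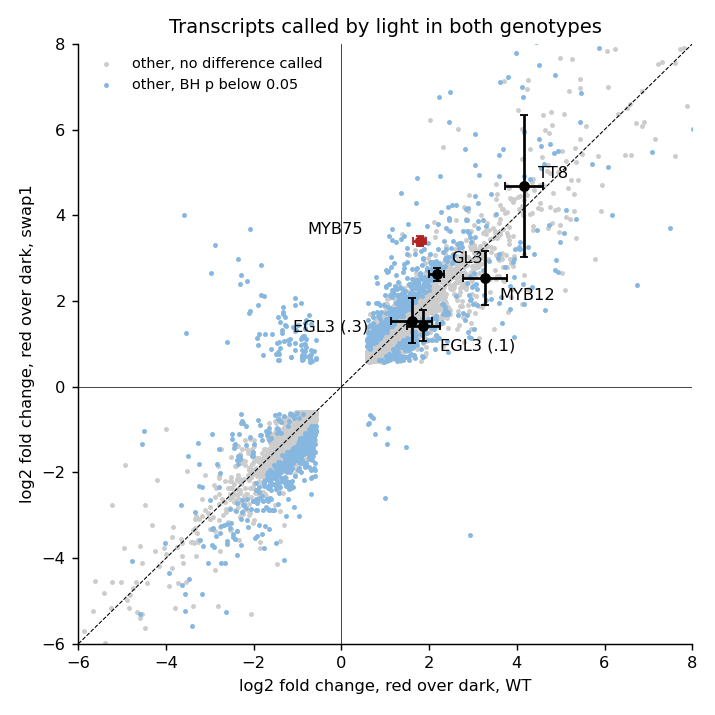
Log2 fold change by red light in WT (x axis) and swap1 (y axis) of the 4679 transcripts called in both, with the 6 member transcripts and their SE, while 55 transcripts lie beyond the axes. MYB75 is the 1 member transcript above the dashed line of equal response by more than the test's threshold, and the empty cross in the middle is the authors' limit on fold change.

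In darkness, swap1 seedlings had less transcript of 3 activators. Of the 10 members 4 were called, 3 lower and 1 higher, while 12.7% of loci were called, 7.14% lower and 5.6% higher. MYB11 was lower by the most, at -3.18 log2 units (SE 0.51, adjusted p = 8.94e-09) in the authors' deposited table, from 55.4 in WT to 6.115 in swap1. MYB75 was at -1.65 (SE 0.17, adjusted p = 1.81e-21) in the authors' deposited table, and MYB111 was at -1.005 (SE 0.17, adjusted p = 5.76e-08). MYB90 was the member that rose, at 1.02 (SE 0.36, adjusted p = 0.0178) in the authors' deposited table, from 28.6 to 58.3. The call of MYB90 is lost where the adjusted p must not exceed 0.01, while those of MYB11, MYB75 and MYB111 pass that limit.

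For 3 members the dark comparison was not called but follows from the loop of the other tables. GL3 gave 0.49 log2 units (SE 0.19, 95% interval 0.13 to 0.86), below the authors' limit of 0.58. MYB12 gave -0.75 (SE 0.70, interval -2.12 to 0.62) and TT8 gave -1.14 (SE 1.69, interval -4.45 to 2.17), so neither interval settles a direction.

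In red light, 5 members were called between genotypes, 3 higher and 2 lower in swap1, while 16.6% of loci were called, 7.06% higher and 9.64% lower. TTG1 rose through AT5G24520.1, from 50.9 in WT to 215 in swap1, which the authors' deposited table gives as 2.08 log2 units (SE 0.24, adjusted p = 2.64e-16). A second TTG1 transcript, AT5G24520.3, went from 91.4 to 151, at 0.72 (SE 0.28, adjusted p = 0.0299) in the authors' deposited table. AT5G24520.1 reaches farther at its 3′ end and has 1 intron, against 2 in AT5G24520.3, so these transcripts differ in splicing as well as in their ends. AT5G24520.1 holds 338 exonic bases found in no other TTG1 transcript, while AT5G24520.3 has 0 bases of its own. Their separate values are thus uncertain. All 4 annotated TTG1 transcripts carry the same length of coding sequence, 1026 bases.

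GL3 rose in swap1 in red light through AT5G41315.1, at 0.94 (SE 0.12, adjusted p = 2.27e-13) in the authors' deposited table, and MYB11 rose at 0.87 (SE 0.35, adjusted p = 0.0352). MYB12 fell, at -1.48 (SE 0.41, adjusted p = 0.00112) in the authors' deposited table, from 80.5 in WT to 28.9. TT8 fell at -0.61 (SE 0.25, adjusted p = 0.0430) in the authors' deposited table, close to both limits for a call. The calls of MYB11 and TT8 are lost where the log2 fold change must reach 1 in size and where the adjusted p must not exceed 0.01, while that of MYB12 passes both limits.

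MYB75 was not called in red light, and the loop of the other 3 tables gives -0.03 log2 units (SE 0.08, 95% interval -0.20 to 0.13). The genotypes thus differed in MYB75 in darkness, by -1.65, and by at most 0.20 in either direction within this interval in red light. For MYB11 the genotype effect itself differed between lights: 0.87 in red light against -3.18 in darkness, a difference of 4.05 log2 units (SE 0.62, 95% interval 2.83 to 5.26, adjusted p = 2.69e-09). Since the 4 comparisons close a loop, this is the same contrast as the difference of the MYB11 light response between genotypes. Of the 2170 transcripts called in both genotype comparisons 12.6% differed between lights at an adjusted p below 0.05, and MYB11 was the 1 member among those tested.

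Markers of other tissues also moved between genotypes. Of 11 seed storage genes of the embryo 6 were lower in swap1 in red light and 3 in darkness, with 0 higher in either, such as SESA2 at -3.69 in red light and OLEO2 at -2.72 and -2.67 in the authors' deposited tables. Of 6 seed coat markers 1 was lower in red light, and in darkness 1 was lower and 1 higher. Of 5 root hair markers 1 (PRP3, 1.11 in the authors' deposited table) was higher in red light, and of 3 leaf hair markers 0 were called between genotypes. Of all loci 9.64% were lower and 7.06% higher in swap1 in red light, and 7.14% lower and 5.6% higher in darkness. The part of these markers in the changes of the members was not tested.

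The early flavonol enzymes, on which MYB11, MYB12 and MYB111 are known to act, rose with light in both genotypes. Of 10 genes on this list 7 rose in WT and 8 in swap1, with 0 lower in either, while 12.5% and 14.1% of all loci were higher. In darkness 8 of the 10 were lower in swap1 than in WT, with 0 higher, beside 7.14% of loci lower. In red light 2 of the 10 were lower, beside 9.64% of loci. FLS1, flavonol synthase, was at -2.77 (SE 0.24) and CHS, chalcone synthase at the entry of the pathway, at -2.39 (SE 0.12) in darkness in the authors' deposited table. CHIL, a chalcone isomerase-like protein, was at -2.98 (SE 0.41, AT5G05270.1) in darkness and at -1.17 (SE 0.17) in red light in the authors' deposited tables. Their median in darkness was -1.15 log2 units, with 1 transcript per gene. The signed median over all transcripts called there was -0.63, which pools 1779 higher and 2154 lower ones and is no typical size.

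All 7 early genes called by light in both genotypes rose more in swap1 at an adjusted p below 0.05. Of the 4679 transcripts tested 26.4% differed, 14.5% with a value higher in swap1 than in WT and 11.9% with a lower one. FLS1 rose by 3.43 in swap1 and 1.16 in WT in the authors' deposited tables, a difference of 2.27 (SE 0.25, adjusted p = 1.54e-17). CHS rose by 3.25 and 1.497 in the authors' deposited tables, a difference of 1.75 (SE 0.15, adjusted p = 1.09e-29). The light and genotype comparisons share the dark groups of swap1 and WT, so a low dark level in swap1 enters both.

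The list of late genes covers synthesis and transport of anthocyanin and of proanthocyanidin, a related product of the seed coat. The complex of MYB75, a bHLH protein and TTG1 is known to act on the anthocyanin genes. BAN and TT12 are the proanthocyanidin genes of the list. Of the 10 genes 8, all but BAN and TT12, were higher with light in each genotype, beside 12.5% of loci in WT and 14.1% in swap1. In darkness 4 were lower in swap1 and 1 was higher, beside 7.14% and 5.6% of loci. In red light 3 were lower, beside 9.64% of loci. UGT79B1, which adds a sugar to anthocyanin, was at -6.35 (SE 1.12) and 5MAT, which adds a malonyl group, at -4.25 (SE 0.69) in darkness in the authors' deposited table. TT19, which helps carry anthocyanin to the vacuole, was at -3.20 (SE 0.39) in darkness and -0.59 (SE 0.08) in red light in the authors' deposited tables. DFR, dihydroflavonol reductase, was at -0.69 (SE 0.27) in darkness and -1.09 (SE 0.10) in red light in the authors' deposited tables. TT12, a vacuolar flavonoid transporter of the seed coat, was the 1 that rose in darkness, and the authors' deposited table gives 1.31 (SE 0.42).

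Of 8 late genes tested for a difference of the light response 4 differed between genotypes, 3 with a larger rise in swap1 and 1 (3AT1, an anthocyanin acyltransferase) with a smaller one. SCPL10, an acyltransferase of anthocyanin, had the largest rise of the list, 13.66 (SE 1.02) in swap1 and 11.01 (SE 0.46) in WT in the authors' deposited tables, with a difference that did not pass (2.66, SE 1.12, adjusted p = 0.0632). UGT79B1 rose by 10.67 (SE 1.03) in swap1 and 4.40 (SE 0.19) in WT in the authors' deposited tables. Group levels were solved for the members only, so whether very few reads in darkness entered the size of these rises was not tested. DFR rose by 3.51 in swap1 and 3.91 in WT in the authors' deposited tables, a difference of -0.40 (SE 0.22, adjusted p = 0.178).

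**Figure D4:**
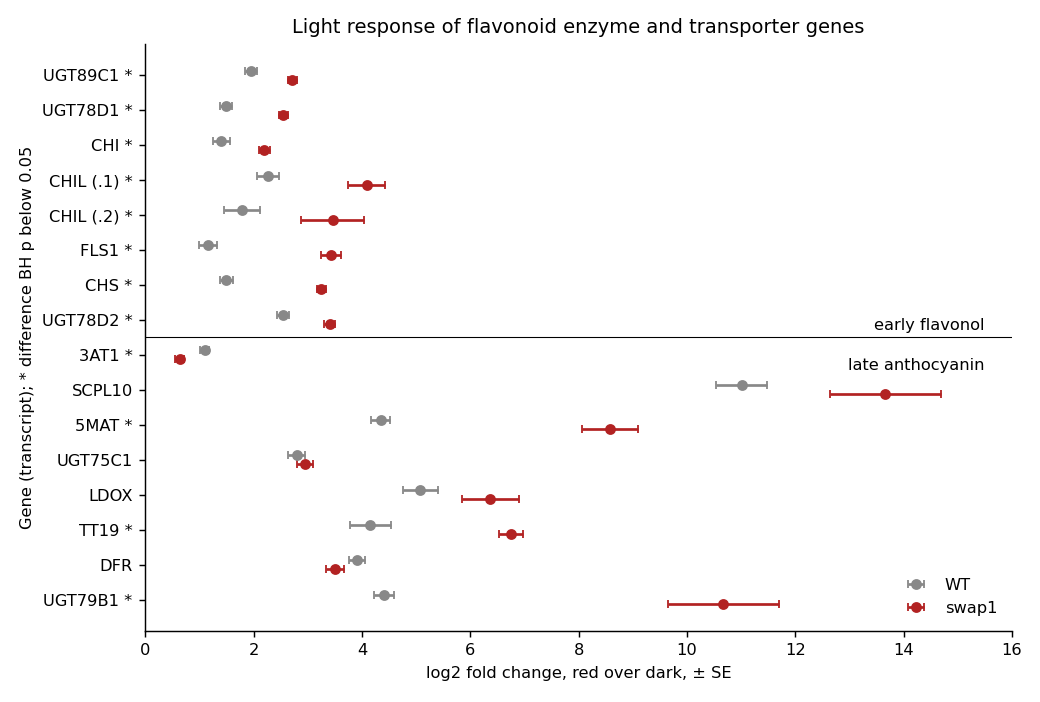
Log2 fold change by red light with its SE (x axis) in WT and swap1 of the early flavonol and late anthocyanin genes called in both (y axis), with a star at an adjusted p of the difference below 0.05. All 8 early transcripts lie farther right in swap1, while 3AT1 and DFR among the late genes lie farther left.

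Among 17 other regulators of the pathway, 7 rose with light in WT, beside 12.5% of loci. In swap1 7 rose and 2 fell, beside 14.1% and 10.5%. MYC1, a bHLH relative of GL3 and EGL3, rose by 2.95 (SE 0.20) in WT and by 2.04 (SE 0.21) in swap1 in the authors' deposited tables (AT4G00480.1). For this transcript the rise was smaller in swap1 (difference -0.90, adjusted p = 0.00975). A second MYC1 transcript, AT4G00480.2, rose by 2.38 (SE 0.63) in WT and 2.75 (SE 0.60) in swap1 in the authors' deposited tables. Its difference was 0.37 (SE 0.87, adjusted p = 0.833), so a smaller rise is not shown for MYC1 as a gene. TT2, the seed coat MYB, fell in swap1 at -4.45 (SE 1.87, adjusted p = 0.0375) in the authors' deposited table, and MYB32 fell at -0.73 (SE 0.12). SPL9, a repressor of anthocyanin genes, rose by 2.69 and 2.92 in the authors' deposited tables. MYB4, a repressor of phenylpropanoid genes, rose by 1.09 and 1.18 in the authors' deposited tables. Between genotypes 1 of the 17 was higher in darkness, beside 5.6% of loci. In red light 1 was higher and 2 were lower, beside 7.06% and 9.64% of loci. MYC1 (AT4G00480.1) was lower in swap1 in red light, at -0.86 (SE 0.16, adjusted p = 2.97e-07), and MYB32 at -0.67 (SE 0.12, adjusted p = 2.69e-07), in the authors' deposited table. TTG2, a WRKY factor downstream of the TTG1 complex, was higher in swap1 in both lights, at 0.64 (SE 0.19) in darkness and 0.74 (SE 0.15) in red light in the authors' deposited tables.

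Of 6 hair patterning genes tied to GL3, EGL3 and TTG1, 3 rose and 1 fell with light in WT, beside 12.5% and 7.95% of loci. In swap1 2 rose and 1 fell, beside 14.1% and 10.5%. Between genotypes 0 of the 6 were called, beside 12.7% of loci in darkness and 16.6% in red light. ETC3, a small MYB inhibitor of leaf hairs, rose by 2.22 (SE 0.37) in WT and 2.55 (SE 0.32) in swap1 in the authors' deposited tables (AT4G01060.1). WER, the MYB partner in root epidermis, rose by 0.99 (SE 0.13) in WT and 0.96 (SE 0.12) in swap1 in the authors' deposited tables. ETC1, an inhibitor of hair fate in leaves, fell, at -0.87 and -0.85 in the authors' deposited tables.

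Of 14 upstream light factors 14 were called by light in WT, 10 higher and 4 lower, beside 12.5% and 7.95% of loci. The B-box genes BBX23 (-7.22, SE 0.82) and BBX25 (4.75, SE 0.11) changed the most in WT in the authors' deposited table, followed by the bHLH factors PIF4 (3.01, SE 0.20) and PIF5 (2.75, SE 0.36, AT3G59060.4). HY5 rose by 1.19 (SE 0.11) in WT and 1.08 (SE 0.09) in swap1 in the authors' deposited tables (difference -0.11, SE 0.15, adjusted p = 0.665), and was not called between genotypes in either light. HYH, the close relative of HY5, was lower in swap1 in darkness, at -1.54 (SE 0.18, AT3G17609.2) in the authors' deposited table, and rose more with light in swap1, by 2.71 against 1.07 in the authors' deposited tables (difference 1.64, SE 0.21, adjusted p = 4.11e-13). PIF4 was higher in swap1 in darkness, at 1.25 (SE 0.30) in the authors' deposited table.

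The transcripts whose fold changes lay closest to those of a member were found by the root mean square difference over the tables in which the member was called. For MYB75, over 3 tables and 1009 candidate transcripts, they were CYP82F1 (0.25 log2 units), HYH (0.26, AT3G17609.3) and NdhU (0.30). For MYB12 they were SQE6 (0.25), LTP3 (0.26) and AT3G03620 (0.31) among 1124. For GL3 they were AT1G73700 (0.16), WRKY30 (0.16) and AT3G21050 (0.17), and for TT8 AT5G01015 (0.19), AT2G25510 (0.30) and DIR1 (0.32), both among the same 1124. The closest of 764 to MYB11 was GLX1 at 0.79, followed by HSP21 at 0.92 and CXE13 at 0.98.

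For the members called in 2 tables the match is over 2 values only. The nearest to MYB111 was NAC015 (0.02), to TTG1 (AT5G24520.1) AT1G76780 (0.06), to EGL3 AT1G61190 (0.02, for AT1G63650.1) and GPAT2 (0.02, for AT1G63650.3). No member was among the nearest 3 transcripts of another.

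Splicing was called in 1 member, EGL3 (chromosome 1, 23599413 to 23603164, plus strand, build TAIR10). The other 9 members had 0 called regions in the 12 comparisons, while 43.7% of 22244 protein-coding loci with an intron had one in at least 1 of the 12. Between swap1 and WT in red light alone 1 member was called, beside 27.1% of these loci. Between swap1 and WT in darkness and in the 2 light comparisons 0 members were called, beside 17.4%, 6.44% and 9.26% of loci. The 5 activating MYB genes have 2 introns each, TT8 and AT1G63650.1 of EGL3 have 6, and the GL3 transcripts have 6 or 7. TT8 and GL3 thus had 0 called regions with about as many introns as EGL3, and a part of intron number was not tested.

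In EGL3 an intron was retained more in swap1 in red light. It is intron 2 of 6 in AT1G63650.1, from 23600389 to 23600936, and with 548 bases the longest of this transcript. Relative to the coverage of its gene, the authors' deposited table puts it at 1.11 log2 units (FDR 7.28e-05), or 2.16 times, for swap1 over WT under red light. For the triple mutant over the same WT libraries the authors' deposited table gives 1.06 (FDR 1.32e-05), or 2.09 times. The intron was called in 0 of the other 10 comparisons.

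The ends of this intron are printed since its retention is the change in EGL3 that has a direction. They come from RefSeq assembly TAIR10.1, 5′ to 3′, with 20 exon and 40 intron bases on each side, and capitals mark the first and last 2 intron bases (chr1:23600369-23600428 and chr1:23600897-23600956).
EGL3 intron, start: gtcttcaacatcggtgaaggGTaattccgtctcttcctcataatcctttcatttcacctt
EGL3 intron, end: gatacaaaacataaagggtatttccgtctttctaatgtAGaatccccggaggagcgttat
The intron opens with GT and closes with AG. It lies inside the coding sequence, after 392 coding bases, and read in the frame of the exon before it the first stop codon ends at base 4 of the intron.

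A second EGL3 region was called from reads that span a junction absent from the annotation. It runs from 23602743 to 23602835, inside the last exon and its 3′ untranslated part, and starts 9 bases after the stop codon. The 91 bases between its exon ends begin with GT and end with AG. The authors' tables give its change in inclusion as a fraction with no sign, so these values show no direction.

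In the authors' deposited tables the change in inclusion was 0.372 between swap1 and WT in red light (FDR 6.47e-05). Between the triple mutant and WT the authors' deposited tables give 0.718 in darkness (FDR 1.601e-10) and 0.622 in red light (FDR 1.17e-15). Between the triple mutant and sfps-2rrc1-3 the authors' deposited tables give 0.719 in darkness (FDR 3.24e-10) and 0.389 in red light (FDR 6.72e-06). The region was thus called in 5 of the 6 comparisons whose groups differ in swap1-1, all but swap1 against WT in darkness, and in 0 of the 6 whose groups do not.

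The shares of protein-coding loci with a called region in the 4 comparisons of the triple mutant were 23% and 29.5% against WT, and 6.64% and 5.48% against sfps-2rrc1-3, in darkness and red light. Where the double mutants already carried swap1-1, 0 members were called, beside 0.692% and 0.85% of loci against swap1-1sfps-2 and 1.1% and 0.836% against swap1-1rrc1-3. Of 9389 junction regions called in any table, 683 were called in at least 5 of the comparisons that differ in swap1-1 and in no other, and 47 had the same 5 as EGL3. Neither AT1G63650.1 nor AT1G63650.3 of EGL3 was called between genotypes in either light.

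**Figure D5:**
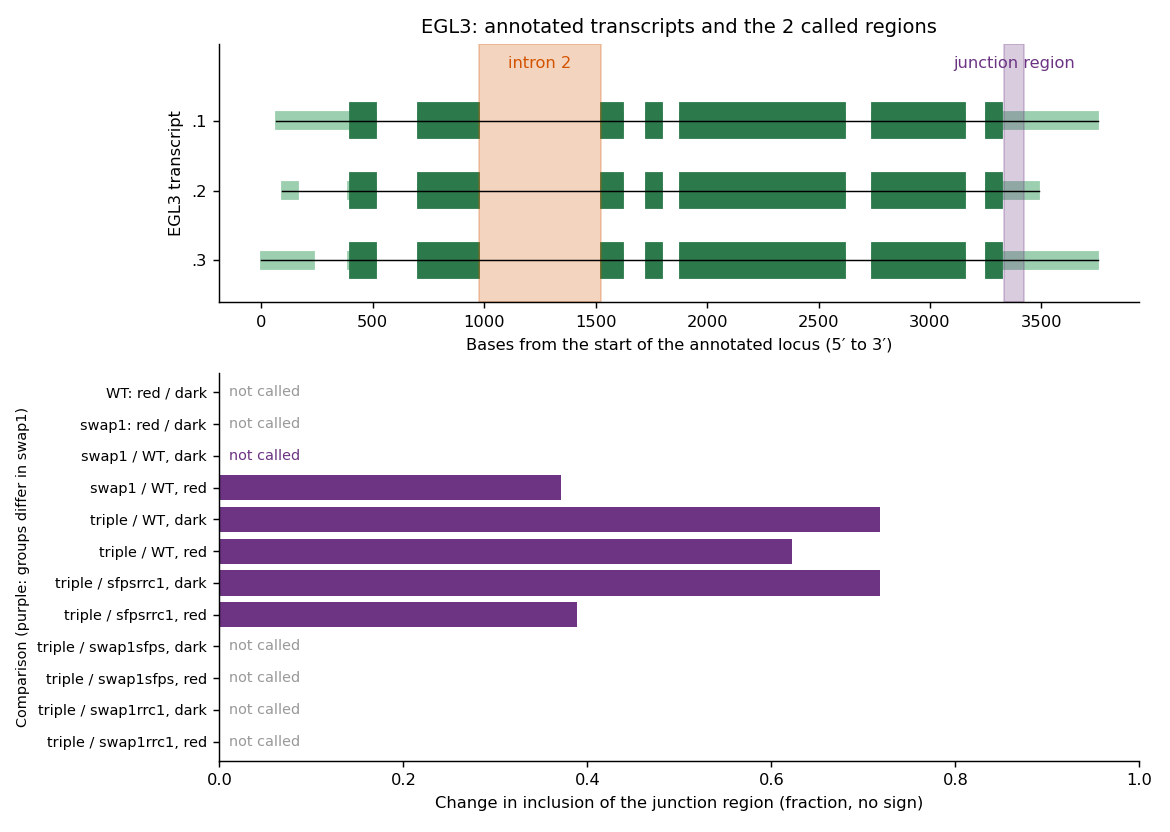
Above, the 3 annotated EGL3 transcripts by distance in bases from the locus start (dark green coding, light green untranslated), with intron 2 and the junction region shaded. Below, the change in inclusion of the junction region (a fraction with no sign, 1 value per comparison, no error deposited) in the 12 comparisons, called in 5 of the 6 that differ in swap1 (purple) and in 0 of the others.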

How the data were processed

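Reads of 150 bases from 36 libraries were processed by the authors. FastQC, STAR, HTSeq and DESeq2 were used on build TAIR10, per the submitters' processing notes, and ASpli 2.0 per the design text of the submitters. Per the file headers, the 4 expression tables give the DESeq2 base mean, a normalised signal over the libraries of a comparison, a log2 fold change with its SE, and an adjusted p-value, for called transcripts alone. Per the file headers, the 12 splicing tables give called regions, with a log2 fold change and an FDR, a kind of p-value, for bins and a change in inclusion, a fraction, for junction regions. Per the file headers, the limits were a fold of 1.5 for bins, an FDR of 0.01 and a change of 0.3 for junctions, and for bins an FDR of 0.05 (WT and swap1) or 0.03 (tables with the triple mutant). The deposited gene ontology tables were not used here.

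The fold changes of the 4 expression tables close as a loop, over 535 transcripts, to a median of 0.00302 log2 units when the genotype tables are turned and 0.628 when they are not, so they were turned to swap1 over WT. Light is red over dark, the sense in which 12 of 12 light-harvesting transcripts rose. Exon bins found in some transcripts of a gene alone moved with the called transcript in 87.5% to 92.2% of cases, read as mutant over WT or red over dark. Of 18813 bins 99.6% lay inside their annotated locus, and 98.4% of unannotated junction regions, less 1 base at each end, opened with GT and closed with AG.

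Group levels were solved from base mean and fold change and the 4 tables put on 1 scale by least squares. Calls are the authors'. Shares of loci called are of protein-coding loci, since only called transcripts are in the tables. They count loci with too few reads to be called, so shares among expressed loci would be higher and are unknown. The difference test uses only transcripts called in both tables, a choice that leaves out small effects. It was tested on simulated data for the light comparison over 4679 transcripts, 200 of them changed. Simulated differences of 0.5, 1.0, 1.5 and 2.0 were called in 32.0%, 74.0%, 84.0% and 90.0% of cases, and 2.10% of calls were false. The simulated noise had the same SE that the test uses, and the limits for a call were not simulated. The 2.10% is thus no measure of false calls in the data themselves. The labels do not say that libraries of a group are separate cultures, so p-values measure only the spread between these libraries. The members and lists were chosen with earlier results of these data known. All 10 members are named, with the 4 largest changes of each list considered first for naming, and likeness was ranked over transcripts called in the same tables. Alternatives were another limit on fold change or p, counting by transcript, wider SE, a t distribution, and other rules for regions. Python 3.11.15 was used with NumPy 2.4.6, pandas 2.3.3, SciPy 1.17.1, Biopython 1.88 and Matplotlib 3.10.9.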

Additional observations from a re-analysis of the deposited data

Results flagged for a closer look

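The light response of MYB75 (AT1G56650.1) differed between genotypes by 1.62 log2 units (SE 0.19, adjusted p = 2.81e-16), with a larger rise in swap1, by the test of the difference itself.

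The effect of swap1 on MYB11 (AT3G62610.1) differed between red light and darkness by 4.05 log2 units (SE 0.62, adjusted p = 2.69e-09), higher than WT in red light and lower in darkness, by the same test.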

How the results depend on the processing

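Of 84 alternative values 79 kept their direction and their side of the threshold or, for counts, stayed within 1.5 times the main value. Some of these could not have moved, so this share overstates how firm the results are. A splicing count of 0 stays 0 under a stricter limit. A difference that failed cannot pass with a stricter p, a wider SE or a t distribution. The test between genotype comparisons also counts as kept, with 1 member that differs, though that member is MYB11 and not MYB75. A count can stay within this range and still lose a named call. In the light response of swap1, MYBL2 (the member that fell) and MYB111 were lost at a log2 fold change of 1 in size, leaving 7 members, and TT8 at an adjusted p of at most 0.01, leaving 8. In darkness between genotypes, MYB90 (the member that rose) was lost at an adjusted p of at most 0.01, leaving 3. In red light between genotypes, the 5 members called became 2 when the log2 fold change had to reach 1 in size (MYB12 and TTG1), and 3 at an adjusted p of at most 0.01 (GL3, MYB12 and TTG1). Counting bins alone, which leaves out junction regions, took the 1 member with a called region to 0 in the triple mutant against WT in darkness and against sfps-2rrc1-3 in both lights. The differences of MYB75 (adjusted p = 5.63e-07) and, as alternatives chosen after seeing the data, MYB11 (adjusted p = 5.48e-04) still passed with SE 1.5 times as wide, and with a t distribution of 8 degrees of freedom (adjusted p = 0.00202 for MYB75 and adjusted p = 0.00744 for MYB11). No paired analysis was possible because the files hold no library values, and for the same reason no library could be left out in turn, and depth per library, and with it the precision of low levels such as TT8 in darkness, is unknown.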
